A study of Rattus norvegicus with 49 samples.

Results

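The keratins of stratified squamous epithelium and the transcription factor Tp63 were examined in rat thyroid tissue after exposure to the radioactive iodine isotope 131I. The 8 genes were Krt5, Krt14, Krt15 and Tp63, which mark the basal layer, Krt4 and Krt13, which mark the layers above it, and Krt6a and Krt17. A probe was assigned to a gene when its RefSeq accession belonged to that gene in a table of RefSeq genes. This gave a probe for 7 of the 8 genes, out of 15154 genes with a probe, and Krt6a is named only. Each of the 49 one-colour Agilent arrays held the RNA of the thyroid of a single male Sprague Dawley rat, in 13 groups. A group held 4 arrays, except for 3 arrays each among rats given 5 kBq, 7-month-old controls and 13-month-old controls. Young rats were injected intravenously with 131I at 5 weeks of age. They received 50 kBq and were examined 3, 6 or 9 months later, when 4, 7 or 10 months old, or they received 0.5, 5 or 500 kBq and were examined after 9 months, when 10 months old. Adult rats received 50 kBq at 17 weeks of age and were examined 3, 6 or 9 months later, when 7, 10 or 13 months old. Untreated controls were 4, 7, 10 and 13 months old. In all, 35 arrays came from exposed rats and 14 from controls. RNA was extracted from whole tissue, so that fewer squamous cells and less RNA per squamous cell cannot be told apart in any value given here.

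Keratins form intermediate filaments from obligate pairs of a type II and a type I chain. In stratified squamous epithelia, such as the lining of the oesophagus or the epidermis, the dividing basal cells use the pair Krt5 and Krt14, with Krt15 as a further type I chain of basal cells. Cells that leave the basal layer of internal, non-cornified epithelia switch to the pair Krt4 and Krt13. Krt6a and Krt17 are the pair of appendages and of wounded or hyperproliferating epithelium. Tp63 encodes p63, a member of the p53 family that basal cells need and that activates Krt5 and Krt14. It is transcribed from alternative promoters into long and N-terminally truncated forms. Follicular thyrocytes are a simple epithelium, whose keratins are Krt8 and Krt18. Squamous cells in thyroid tissue are known from remnants of the ultimobranchial body and from metaplasia. Whether squamous signals in these samples came from the thyroid or from other tissue taken with it was not tested.

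The type I genes lie together on chromosome 10 in the RefSeq gene table (build GRCr8), where Krt13 and Krt15 are direct neighbours, 4 genes lie between Krt15 and Krt14, and 2 lie between Krt14 and Krt17. The type II genes Krt6a and Krt5 are direct neighbours on chromosome 7, with 8 genes between Krt5 and Krt4, and Tp63 lies on chromosome 11. Promoter sequences of RefSeq were at hand for 3 of the 8 genes, 1 basal keratin, 1 suprabasal keratin and Tp63. They are shown because Krt5 and Krt4 were high on the same arrays, as described further on. No sequence was at hand for a keratin of chromosome 10. Which of the alternative promoters of Tp63 is shown was not examined. The 250 bases before the transcription start (GRCr8) are printed in the direction of transcription, with motif matches in capitals.
Krt5, chr7:134730570-134730819, minus strand: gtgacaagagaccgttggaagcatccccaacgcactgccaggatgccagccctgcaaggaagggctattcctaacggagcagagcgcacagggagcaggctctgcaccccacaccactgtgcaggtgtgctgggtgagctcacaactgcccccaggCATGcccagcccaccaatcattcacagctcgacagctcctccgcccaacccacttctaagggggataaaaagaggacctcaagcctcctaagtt
Krt4, chr7:134930714-134930963, minus strand: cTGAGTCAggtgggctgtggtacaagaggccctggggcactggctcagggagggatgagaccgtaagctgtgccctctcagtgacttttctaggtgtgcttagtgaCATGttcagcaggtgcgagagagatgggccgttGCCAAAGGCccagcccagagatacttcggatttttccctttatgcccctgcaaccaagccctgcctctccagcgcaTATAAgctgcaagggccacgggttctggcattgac
Tp63, chr11:88554178-88554427, minus strand: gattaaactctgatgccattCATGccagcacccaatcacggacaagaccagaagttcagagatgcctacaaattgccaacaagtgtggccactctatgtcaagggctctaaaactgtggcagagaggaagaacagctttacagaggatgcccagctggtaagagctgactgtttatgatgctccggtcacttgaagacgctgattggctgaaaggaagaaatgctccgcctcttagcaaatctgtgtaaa

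The motifs searched on both strands were TATAA (TATA box), TGANTCA (AP-1), GCCNNNGGC (AP-2) and CATG, the core of a half-site of the p53 family. The Krt4 window held TATAA from 35 to 31 bases before the start, TGAGTCA from 249 to 243 bases, GCCAAAGGC from 111 to 103 bases and CATG from 144 to 141 bases before it. The Krt5 window held CATG from 94 to 91 bases before the start, and the Tp63 window held it from 230 to 227 bases before the start. In all 33465 promoter windows of this length, TATAA was found in 24.0%, TGANTCA in 6.34%, GCCNNNGGC in 12.6% and CATG in 54.5%. The GC content was 59.2% for Krt5, 57.2% for Krt4 and 47.2% for Tp63, against a median of 51.2% over all windows.

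Signals are given as log2 of the processed signal minus the 75th percentile of the array, so that 0 is the signal of that percentile. A probe was set only against itself on other arrays. On 48 arrays, 69.2% to 82.5% of the spots were well above background by the mark of the scanner software, and the 75th percentile of the signal lay between 783 and 4172. On the remaining array, replicate 2 of the young rats 3 months after 50 kBq, these values were 43.1% and 61.0, and no probe under a log2 signal of -2.01 carried the mark. A pair of arrays with usual signal did not have the levels of thyroid tissue. The thyroid hormone precursor Tg was at 0.14 in replicate 3 of the young rats 3 months after 50 kBq and at -0.69 in replicate 2 of the controls of 7 months, against 6.41 or more on all other arrays. The values below are from all arrays, and those without these 3 arrays are given where stated.

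The squamous keratins were either high or low on an array, with a gap in between. Krt13 had the widest range, from -9.93 to 6.04 with a median of -7.01, and was well above background on 23 of 49 arrays. Leaving out the array with low signal, 13 arrays had Krt13 between 2.72 and 6.04 and 35 had it at -1.21 or lower, with no array in the 3.93 between them. The same 13 arrays had Krt4 between 2.51 and 6.00, and the other 35 had it between -6.34 and -1.14, while its probe carried the mark on all 49 arrays. The gap of Krt4 between these arrays was 3.66.

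The basal keratins were high on the same 13 arrays. Krt5 lay between -1.97 and 1.83 on these and between -7.91 and -4.48 on the other 35 (median over all 49 arrays -6.11, marked on 39). Krt14, the type I partner of Krt5, lay between -0.45 and 3.67 against -6.81 to -2.40 (median -4.69, marked on 49). Krt15 lay between 0.079 and 4.47 against -7.96 to 0.031 (median -3.65, marked on 46). Krt15 was the keratin without a gap at this place. The highest of the low arrays, at 0.031, was replicate 3 of the young rats 3 months after 50 kBq, 1 of the arrays without thyroid levels, and the next was at -1.52. Krt17 lay between -2.76 and 0.99 on the 13 arrays and between -9.23 and -4.95 on the other 35 (median -7.68, marked on 20). For each of the 6 keratins, the 13 highest of these 48 arrays were therefore the same arrays. The array with low signal had Krt5 at -0.94, Krt14 at -0.56, Krt15 at -1.47 and Krt4 at -0.69. Its Krt13 (-4.14) and Krt17 (-4.13) were not well above background.

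The probes of Tp63 behaved differently from each other. They match different RefSeq transcripts of the gene, and which protein forms these transcripts encode was not examined. The brighter probe was marked on 49 arrays and ranged from 1.29 to 2.96 with a median of 1.76, apart from 4.09 on the array with low signal. On the 13 keratin-high arrays it lay between 1.34 and 2.16, inside its range of 1.29 to 2.96 on the other 35, and 2 of these 13 were among its 13 highest. The other probe ranged from -7.13 to 0.75 with a median of -4.76 and was marked on 45 arrays. It lay between -3.47 and 0.75 on the keratin-high arrays and between -7.13 and -3.69 on the others, so that its 13 highest arrays were those of the keratins. Its widest gap, of 1.57, was inside the high arrays, below -1.90, with replicate 4 of the adult rats at 6 months alone under it at -3.47.

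**Figure D1:**
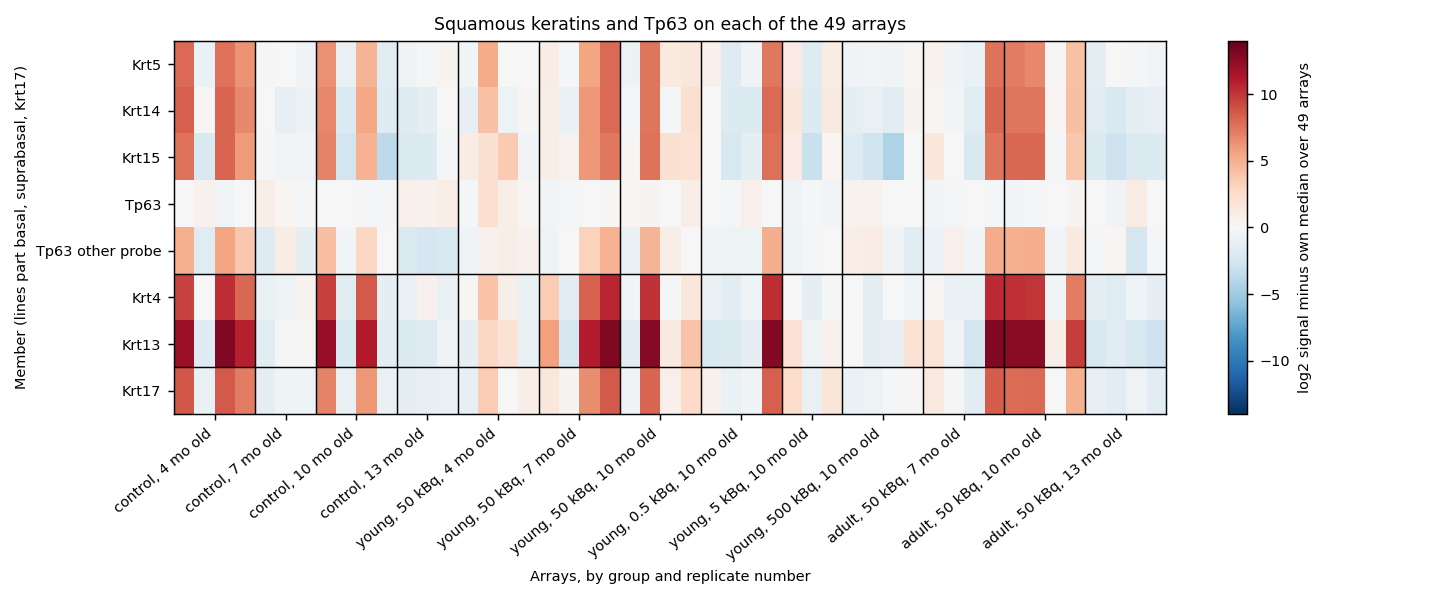
Each column is 1 of the 49 arrays, ordered by group and replicate number, and each row a probe. The colour is the log2 signal minus the median of that probe over the 49 arrays. The 6 keratins and the other probe of Tp63 are red on the same 13 columns, spread over 7 of the 13 groups, and the brighter probe of Tp63 is not. Some other columns are red for part of the keratins. Among them are the array with low signal (Krt5 at -0.94, Krt4 at -0.69) and replicate 1 of the young rats 6 months after 50 kBq (Krt13 at -1.21).

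The keratin-high arrays came from exposed and untreated rats. They were 8 of the 35 exposed arrays and 5 of the 14 control arrays. By group, they were replicates 1, 3 and 4 of the controls of 4 months, 1 and 3 of the controls of 10 months, 3 and 4 of the young rats 6 months after 50 kBq, 2 of the young rats 9 months after 50 kBq, 4 of the young rats given 0.5 kBq, 4 of the adult rats at 3 months and 1, 2 and 4 of the adult rats at 6 months. None was in the controls of 7 or 13 months, in the young rats 3 months after 50 kBq, at 5 or 500 kBq, or in the adult rats at 9 months. By age, they were 3 of 8 arrays at 4 months, 3 of 11 at 7 months, 7 of 23 at 10 months and 0 of 7 at 13 months. They lay on 7 of the 8 slides, with 1 to 3 on each, and the slide without one held a single array. By scan day they were 6 of 24, 2 of 14 and 5 of 11 arrays. These are counts of arrays that were picked out by the measured signal, and no test between them and the others was made.

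All 7 genes were well above background on 19 arrays, 6 on 4, 5 on 17, 4 on 6 and 3 on 3. Every keratin-high array was among the 19, which held 6 further arrays. Of these 6, replicate 1 of the young rats 6 months after 50 kBq stood closest to the gap, with Krt4 at -1.14 and Krt13 at -1.21, while its Krt5 was at -5.08. Replicate 4 of the young rats 9 months after 50 kBq came next, with Krt13 at -2.98, Krt4 at -3.06 and Krt5 at -4.48.

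The spread within a group was large where the group held both high and low arrays. In the controls of 4 months Krt13 was at 5.04, -8.82, 5.94 and 3.88, a mean of 1.51 ± 6.94 (SD, n = 4). In the controls of 10 months it was at 5.23, -9.14, 4.09 and -8.62, a mean of -2.11 ± 7.83 (SD, n = 4). Untreated rats of the same age thus lay on both sides of the gap. In the controls of 7 months, in contrast, Krt13 was at -8.56, -7.18 and -6.82, a mean of -7.52 ± 0.92 (SD, n = 3), and in those of 13 months at -9.03, -8.76 and -7.45, a mean of -8.41 ± 0.85 (SD, n = 3).

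In the young rats given 50 kBq, Krt13 was at -8.39, -4.14, -4.96 and -8.01 after 3 months (mean -6.38 ± 2.14, SD, n = 4), the second value being that of the array with low signal. After 6 months it was at -1.21, -9.45, 3.96 and 6.04 (mean -0.17 ± 6.90, SD, n = 4), and after 9 months at -8.46, 5.69, -5.75 and -2.98 (mean -2.88 ± 6.13, SD, n = 4). The arrays of 6 and 9 months covered both sides of the gap. At 0.5 kBq Krt13 was at -9.19, -9.04, -8.41 and 5.88, so that a single array set the mean of -5.19 ± 7.39 (SD, n = 4). At 5 kBq it was at -5.02, -7.74 and -6.43 (mean -6.39 ± 1.36, SD, n = 3) and at 500 kBq at -7.01, -8.36, -8.15 and -4.98 (mean -7.13 ± 1.55, SD, n = 4).

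In the adult rats Krt13 was at -5.19, -7.48, -9.56 and 5.95 after 3 months (mean -4.07 ± 6.91, SD, n = 4). After 6 months it was at 5.60, 5.60, -6.23 and 2.72 (mean 1.93 ± 5.60, SD, n = 4), the group with the highest mean, and after 9 months at -9.28, -8.51, -9.23 and -9.93 (mean -9.24 ± 0.58, SD, n = 4), the group with the lowest. These group means were 11.2 apart, and none of the 12 steps between groups that follow each other in the order of means was larger than the larger of their SDs. The same held for Krt5, Krt14, Krt15, Krt17 and the brighter probe of Tp63, whose highest and lowest group means were 5.72, 7.38, 7.11, 7.10 and 1.17 apart. For Krt4 (8.21 apart) and the other probe of Tp63 (5.33 apart), 1 of the 12 steps was larger.

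Krt5 followed the same groups at a smaller scale. It lay between 0.21 and 1.83 on 3 of the controls of 4 months and at -7.06 on the other (mean -0.88 ± 4.18, SD, n = 4), the highest group mean, and at 0.28, -7.10, -1.39 and -7.73 in the controls of 10 months (mean -3.99 ± 4.02, SD, n = 4). It was at -7.35, -6.16, -6.38 and -6.52 in the adult rats at 9 months, the lowest group mean (-6.60 ± 0.52, SD, n = 4). The brighter probe of Tp63 had its highest group mean, 2.57 ± 1.12 (SD, n = 4), in the young rats 3 months after 50 kBq, with 1.57, 4.09, 2.68 and 1.92, where the 4.09 is from the array with low signal. Without that array and the one without thyroid levels, the mean of the remaining 2 was 1.74.

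**Figure D2:**
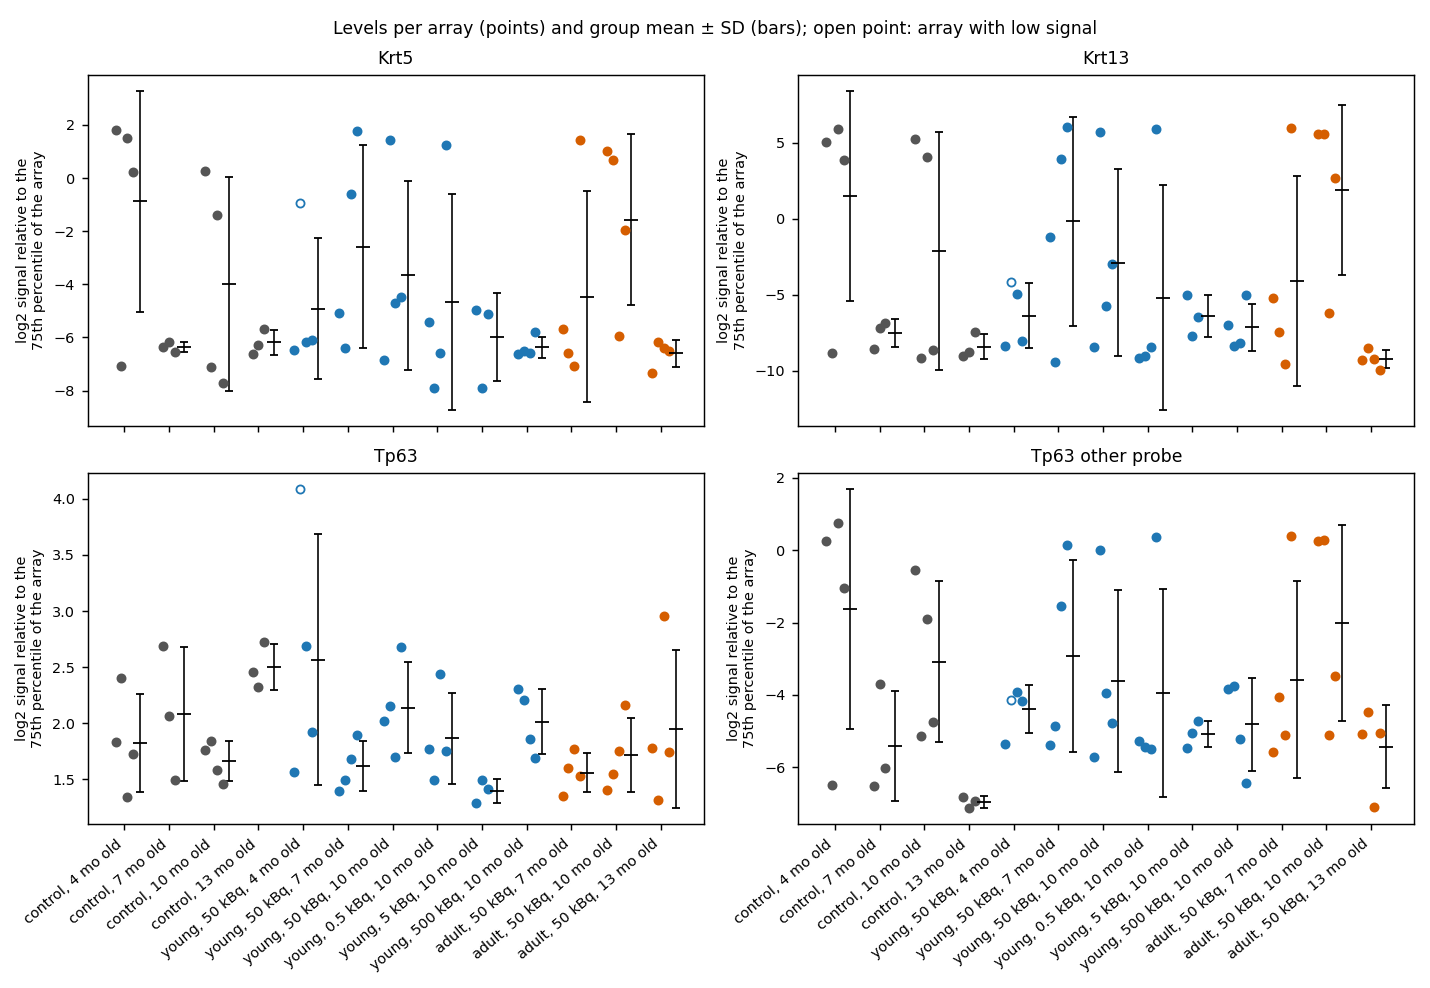
Points are the log2 signals of single arrays, with the 75th percentile of each array at 0, for 4 probes in the 13 groups, and the bars beside them are the group mean ± SD (n = 3 or 4). Krt5, Krt13 and the other probe of Tp63 split into high and low arrays inside the same groups, for example in the controls of 4 and 10 months, while the brighter probe of Tp63 stays between 1.29 and 2.96 except on the array with low signal (open point).

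To compare the layers, the probe of each gene was centred on its own median over the 49 arrays, and the mean of Krt4 and Krt13 was set against the mean of Krt5, Krt14, Krt15 and Tp63. The suprabasal mean was above the basal mean on 26 of 49 arrays, with differences from -1.77 to 6.16. On all 13 keratin-high arrays it was above, by 4.74 to 6.16, so that the suprabasal pair stood further from its own median than the basal genes did. On the other 36 arrays it was above on 13, with differences from -1.77 to 4.01. The highest of these, 4.01, was replicate 1 of the young rats 6 months after 50 kBq. The brighter probe of Tp63, which did not follow the keratins, is part of the basal mean. With the other probe in its place, the suprabasal mean was above on 31 of 49 arrays, again on all 13 keratin-high arrays, by 3.51 to 5.40. Because a low signal is bounded by the background, and Krt13 was not well above it on 26 arrays, the sizes of these steps depend on the background signal.

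**Figure D3:**
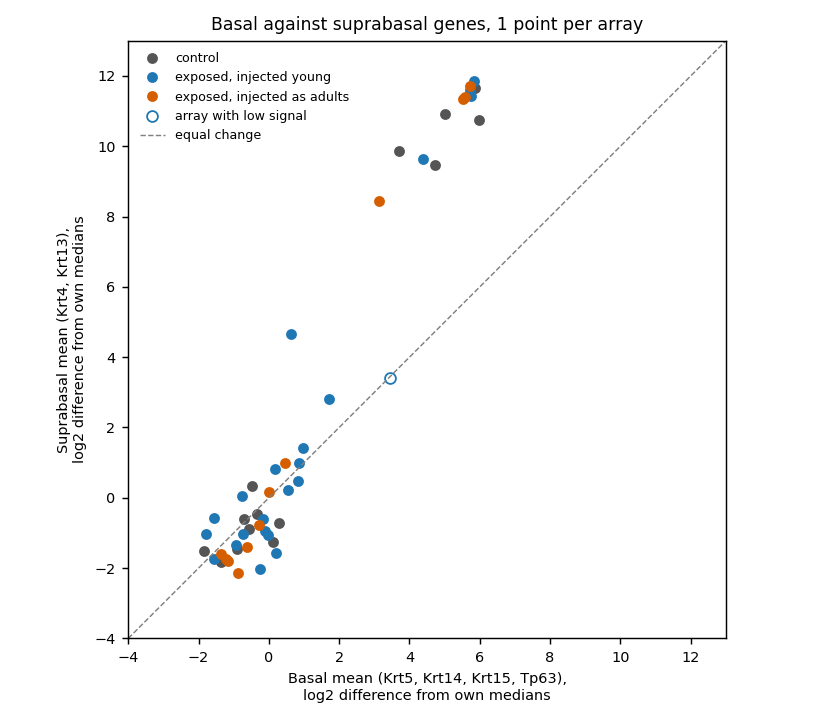
Each point is 1 array, with the mean of the basal genes (horizontal) and of the suprabasal genes (vertical), each gene as the log2 difference from its own median. The 13 keratin-high arrays lie at the upper right, above the dashed line of equal change by 4.74 to 6.16, and include control and exposed arrays. The other arrays lie on both sides of the line.

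Keratins, partners of a filament pair among them, were also related among the keratin-high arrays. Such correlations were computed separately in the clusters, 6 in all, leaving out the array with low signal, and the arrays of a cluster share slides and scan days. The clusters were set by the gap in the signal of Krt13, 1 of the genes correlated. The p-values therefore describe arrays picked by these same signals and are not independent support. Over the 13 high arrays, Krt4 and Krt13 had a Pearson r of 0.996 and a Spearman rho of 0.984, and Krt5 and Krt14 an r of 0.982 and a rho of 0.940. For these, the adjusted p was 1.2e-05 for r and 2e-05 for rho (permutation test, 100000 permutations), from the smallest p these can give, 1e-05. Without the 2 arrays farthest from the median of the first gene, r was 0.995 and 0.956. The pair across layers, Krt5 and Krt13, had an r of 0.886 (adjusted permutation p = 0.0003) and a rho of 0.764 (adjusted permutation p = 0.00363), and r was 0.770 without the 2 farthest arrays. Over the 6 high arrays of the first scan day r was 0.997, 0.982 and 0.780 in the same order, and the other scan days held too few. Over all 49 arrays, which mix the clusters, r was 0.985 for the partners Krt5 and Krt14. It was 0.988 for Krt14 and Krt17 and 0.981 for Krt5 and Krt17, which are not partners. A high r was thus not particular to partners.

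Over the 35 low arrays, the probe of Krt14 was well above background on 35 and that of Krt5 on 25. There, Krt5 and Krt14 had an r of 0.781 (adjusted permutation p = 1.2e-05) and a rho of 0.738 (adjusted permutation p = 2e-05). Without the 2 farthest arrays r was 0.761, and by scan day it was 0.824, 0.888 and 0.715. The relations of Krt13 among these arrays are not given, since its probe carried the mark on 10 of the 35.

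The genes most like the basal and suprabasal means were sought over all genes, by Pearson's r over the 49 arrays. For the basal mean they were Lgals7 (galectin-7, of stratified epithelia, r = 0.981), Aqp3 (a water and glycerol channel of basal keratinocytes, 0.973), Serpinb10 (0.971), Tgm1 (a transglutaminase that cross-links the cornified envelope, 0.966) and Ocm (oncomodulin, a calcium-binding protein, 0.964). For the suprabasal mean they were Slurp1 (a secreted Ly6 protein of keratinocytes, 0.983), Ly6d (0.983), Csta (cystatin A, a protease inhibitor of the cornified envelope, 0.981), Serpinb12 (0.981) and Fam25a (0.980). These values describe arrays that fall into 2 clusters and share slides, and they carry no test. For each of the 10 genes, the 13 highest arrays, the array with low signal left out, were the keratin-high ones. As the genes were picked for following means that split at this gap, that overlap comes with the choice and adds no support. Ly6d, for example, ranged from -9.77 to 3.39 and was well above background on 14 arrays.

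Other genes of squamous tissue were described from lists. Of 18 genes for adhesion of the basal layer and partners of p63, 10 had a probe and were tested. The highest signals in this list were those of Perp (a p63 target in desmosomes), Itgb4 (the integrin beta chain of hemidesmosomes), Jup (plakoglobin) and Lamb3 (a chain of laminin-332). Their 13 highest arrays included 11, 5, 11 and 3 of the keratin-high ones. Of the 18 genes for suprabasal differentiation, 13 had a probe and 12 were tested. The brightest were Anxa1, Lypd3, Cnfn (cornifelin) and Dsc2 (desmocollin-2), with 9, 13, 13 and 1 of the keratin-high arrays among their 13 highest. With the array of low signal left out, Cnfn ranged from -3.25 to 5.20 and Lypd3 from -1.84 to 4.69. Over the summed linear signal of a list, 10 of the 13 highest arrays of the adhesion list and 12 of those of the differentiation list were keratin-high.

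The summed signals of other cell types were set beside this, over those genes of each list that entered the fit, the ones marked on 3 or more arrays, as multiples of the 75th percentile. Their part in the keratin levels was not tested. Of the 13 arrays with the highest sum, 12 were keratin-high for the epidermis list. Only 2 of its 6 genes entered that sum, Krt1, which reached 0.043 and had 12 keratin-high arrays among its 13 highest, and Krt2, which stayed at -5.79 or lower on the 48 arrays and had 2. The number was 8 for airway epithelium (7 of 10 genes), 4 for follicular thyrocytes (10 of 10), 4 for skeletal muscle (6 of 6), 4 for parathyroid (3 of 3), 4 for thymus (4 of 8), 3 for cartilage (8 of 10), 3 for C cells (5 of 5) and 1 for simple epithelium (6 of 6). The simple epithelial keratin Krt18 ranged from 1.94 to 4.90 on the 46 arrays with usual signal and thyroid levels.

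The groups were then compared with limma, in a single fit of the 49 arrays, over 25284 probes and with Benjamini-Hochberg adjustment over all of them. A probe was called at an adjusted p under 0.01 and a fold above 1.5, the cut-offs of the study. None of the 8 probes of the 7 genes was called in any of the 14 comparisons. Over all probes, 0.0119% were called in the young rats after 50 kBq at 3 months and at 9 months and after 5 kBq, 0.558% in the adult rats at 9 months, 5.15% between controls of 13 and 4 months, and 0% in the other 9 comparisons. Exact permutation tests of single probes, two-sided, cannot go below p = 0.0286 for 4 arrays against 4 or 0.0571 for 3 against 4. Comparisons at the same age share their control arrays.

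At 3 months after 50 kBq, the mean signals of the keratins in young rats were below those of controls of the same age, of which 3 of 4 arrays were keratin-high, and no difference was called. The log2 difference was -7.89 for Krt13 (SE 3.64, limma adjusted p = 0.109), -6.03 for Krt4, -5.23 for Krt14 (SE 2.26, limma adjusted p = 0.0890), -4.04 for Krt5 and -3.25 for Krt15. Krt17 was well above background on none of the exposed arrays and on 3 of 4 controls (limma adjusted p = 0.0988). With the exposed arrays set no lower than their lowest marked signal, it was 12.4-fold lower. This is no strict bound, since the unmarked control kept its measured signal. That fold was 6.49 without replicate 1 of the controls and 59.2 without replicate 2. With normexp background correction the log2 difference of Krt17 was -2.74, a smaller fold. The groups overlapped for each of the 8 probes, and replicate 2 of the controls was keratin-low. Of the 8 probes, 5 had an unadjusted p under 0.05, as had 37.9% of all probes, and the median difference over all probes was 0.30. Within scan days, the difference of Krt13 was -4.59 (day 1, 2 arrays against 2) and -11.18 (day 2, 2 against 2), and within slides -10.00 and -12.27 (1 against 1 on each). The control array was keratin-high on both of these slides. The brighter probe of Tp63 had a difference of 0.74, which was -0.081 without the 3 arrays that stood apart, and the other probe had -2.76. Without these arrays the difference of Krt13 was -9.71.

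At 6 months after 50 kBq, the mean signals of the keratins in young rats were above those of their controls, and no difference was called. Krt13 had a log2 difference of 7.36 (SE 3.94, limma adjusted p = 0.780). It was well above background on 3 of the 4 exposed arrays and on none of the 3 controls. With the controls set no lower than their lowest marked signal, it was 86.2-fold higher. This is no strict bound, since the unmarked exposed array kept its measured signal. That fold was 20.5 without replicate 4 of the exposed rats and 736 without replicate 2. With normexp the log2 difference was 5.76, a smaller fold. Krt17 had a difference of 5.10 (SE 2.44, limma adjusted p = 0.748) and was at least 9.05-fold higher, with all 4 exposed and none of the control arrays well above background. That bound was 3.36 and 22.1 without the same replicates, and the normexp difference of 2.57 was below it. The difference was 5.61 for Krt4, 4.13 for Krt14, 4.06 for Krt15 and 3.79 for Krt5. The exposed and control arrays did not overlap for Krt15 and Krt17, each with an exact permutation p of 0.0571, beside 1.67% of all probes that were likewise higher, and 6.16% that were lower, on every exposed array than on any control. Of all probes, 0% were called and 6.56% had an unadjusted p under 0.05. No scan day and no slide held arrays of both groups, so that exposure cannot be told apart from scan day or slide in this comparison. With the scan day as a block in the fit of all arrays, the difference of Krt13 was 9.43. The day effects in that fit come from other groups. The brighter probe of Tp63 had a difference of -0.47 and the other probe 2.49.

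At 9 months after injection, all 4 activities were compared with the same 4 controls, of which 2 were keratin-high. At 500 kBq, where no array was keratin-high, the log2 difference was -5.01 for Krt13 (SE 3.64), -4.22 for Krt4, -3.64 for Krt15, -2.91 for Krt14 and -2.39 for Krt5. Krt17 was well above background on none of the 4 exposed arrays and on 2 of the controls. With the exposed arrays set no lower than their lowest marked signal, it was 2.85-fold lower. This is no strict bound, since the unmarked controls kept their measured signals. That fold was 1.08 without replicate 1 of the controls and 6.83 without replicate 2. At 5 kBq the difference was -4.31 for Krt4, -4.28 for Krt13, -1.97 for Krt15, -1.77 for Krt14 and -1.69 for Krt17. The limma adjusted p rounded to 1 for each of these, and the exposed and control arrays overlapped for every member. On the second scan day, with 3 of the 4 arrays of 500 kBq, there was no control of this age, and on the third Krt13 differed by -12.45 (1 array against 1). At 5 kBq it differed by -3.56 on the first scan day (1 against 3) and by -10.52 on the third (1 against 1). The arrays of the third day also shared a slide, and within another slide the difference was -12.96 (1 against 1). In each of these comparisons of 1 against 1, also at 500 kBq, the control array was keratin-high. At 0.5 kBq the differences of the 8 probes ran from -3.08 to 0.20, and at 50 kBq from -1.06 to 1.56. Under the other settings or with 1 array left out, 5 of the 8 changed sign at 0.5 kBq and 7 of the 8 at 50 kBq, so that no direction is given for them.

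In adult rats, the mean signals of the keratins were above those of controls of the same age at 3 and 6 months after 50 kBq, and no difference was called. At 3 months, a single exposed array, replicate 4, was keratin-high. At 3 months, the log2 difference of Krt13 was 3.46 (SE 3.94, limma adjusted p = 0.997), with 2 of 4 exposed and none of 3 control arrays well above background. Krt17 differed by 2.86, also with 2 of 4 against none. No bound on the fold is given for them, since none remained without replicate 4 of the exposed rats. Within the second scan day Krt13 differed by 1.36 (2 against 2), and within 1 slide by 2.23 (2 against 1). The differences of Krt4 (2.54) and Krt5 (1.90) became -0.24 and -0.067 without replicate 4, the keratin-high array of the group. On the other exposed arrays, Krt13, Krt14, Krt15 and Krt17 reached both above and below all control values. Krt13 was at -5.19, -7.48 and -9.56 on these, against -8.56, -7.18 and -6.82 in the controls. At 6 months, the difference was 4.04 for Krt13, 3.45 for Krt15, 2.92 for Krt4, 2.77 for Krt14, 2.42 for Krt5 and 2.40 for Krt17, with a limma adjusted p that rounded to 1 for each. Within scan days, Krt13 differed by 9.78 (day 1, 1 array against 3) and 0.072 (day 3, 2 against 1), and within 1 slide by 14.48 (1 against 2). On that slide the exposed array was keratin-high and the controls were not. At 9 months, where no exposed or control array was keratin-high, the differences ran from -0.83 to 1.53, and 3 of 8 changed sign under another setting. The fit shares 1 spread per probe over all groups, so that the SE of Krt13 was 3.94 there, beside group SDs of 0.58 and 0.85.

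The difference between the effect in adult and in young rats was also tested. At 3 months after 50 kBq it was 11.34 for Krt13 (SE 5.36, limma adjusted p = 0.151) and 8.56 for Krt4, and 6 of the 8 probes had an unadjusted p under 0.05, against 29.6% of all probes. At 6 months it was -3.32 for Krt13, and the smallest unadjusted p of the 8 was 0.308. At 9 months it lay between -2.36 and 2.06. Over all 9 exposed groups together, the mean difference from controls of the same age lay between -0.82 and 0.12, with the smallest unadjusted p at 0.579. Without the 3 arrays that stood apart it lay between -1.01 and 0.041, and Krt15 and both probes of Tp63 changed sign, so that no direction is given for them.

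Between untreated rats, the mean signals of the keratins were lower at 13 than at 4 months of age. None of the differences was called. The log2 difference was -9.92 for Krt13 (SE 3.94, limma adjusted p = 0.0705), with none of the 3 old controls and 3 of the 4 young ones well above background. With the old controls set no lower than their lowest marked signal, Krt13 was 304-fold lower. This is no strict bound, since the unmarked young control kept its measured signal. That fold was 109 without replicate 3 of the young controls and 3310 without replicate 2. With normexp the log2 difference of Krt13 was -6.90, a smaller fold. The log2 difference was -7.42 for Krt4, -6.27 for Krt15 and -5.31 for Krt5. For Krt14 it was -6.89 (SE 2.44, limma adjusted p = 0.0432), for Krt17 -7.05 (SE 2.44, limma adjusted p = 0.0387) and for the other probe of Tp63 -5.33 (SE 1.62, limma adjusted p = 0.0210). In these last 3, the old and young controls did not overlap (exact permutation p = 0.0571), beside 12.8% of all probes that were likewise lower, and 21.5% that were higher, on every old array than on any young one. Set in the same way as Krt13, Krt17 was 30.7-fold lower, again no strict bound. That fold was 16.2 without replicate 1 of the young controls and 147 without replicate 2. Under normexp the log2 difference of Krt17 was -3.57, a smaller fold. None of the 8 probes passed the cut-off of 0.01, and 7 of the 8 probes had an unadjusted p under 0.05, against 34.0% of all probes. The brighter probe of Tp63 differed by 0.68. Within scan days, Krt13 differed by -6.35 (day 1, 2 arrays against 2) and -13.67 (day 2, 1 against 2). Within slides it differed by 0.59 on the third (2 against 1) and -12.64 on the fourth (1 against 1). On the third slide, where the young control was the keratin-low replicate 2, Krt5 and Krt15 differed by 0.92 and 0.97.

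Markers of other tissues moved with this comparison of ages. The summed signal of the skeletal muscle list was 84.2 to 103 in the controls of 13 months and 372 to 756 in those of 4 months. That of the airway list was 3.40 to 4.96 against 11.9 to 81.5, and that of the follicular list 326 to 405 against 160 to 282. It was 260 to 299 against 24.7 to 104 for C cells, 153 to 168 against 82.3 to 114 for parathyroid and 34.0 to 44.6 against 9.18 to 30.1 for simple epithelium. The ciliated-cell gene Tppp3 and the slow-muscle gene Tnnt1 were called lower. Their part in the keratin differences was not tested.

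**Figure D4:**
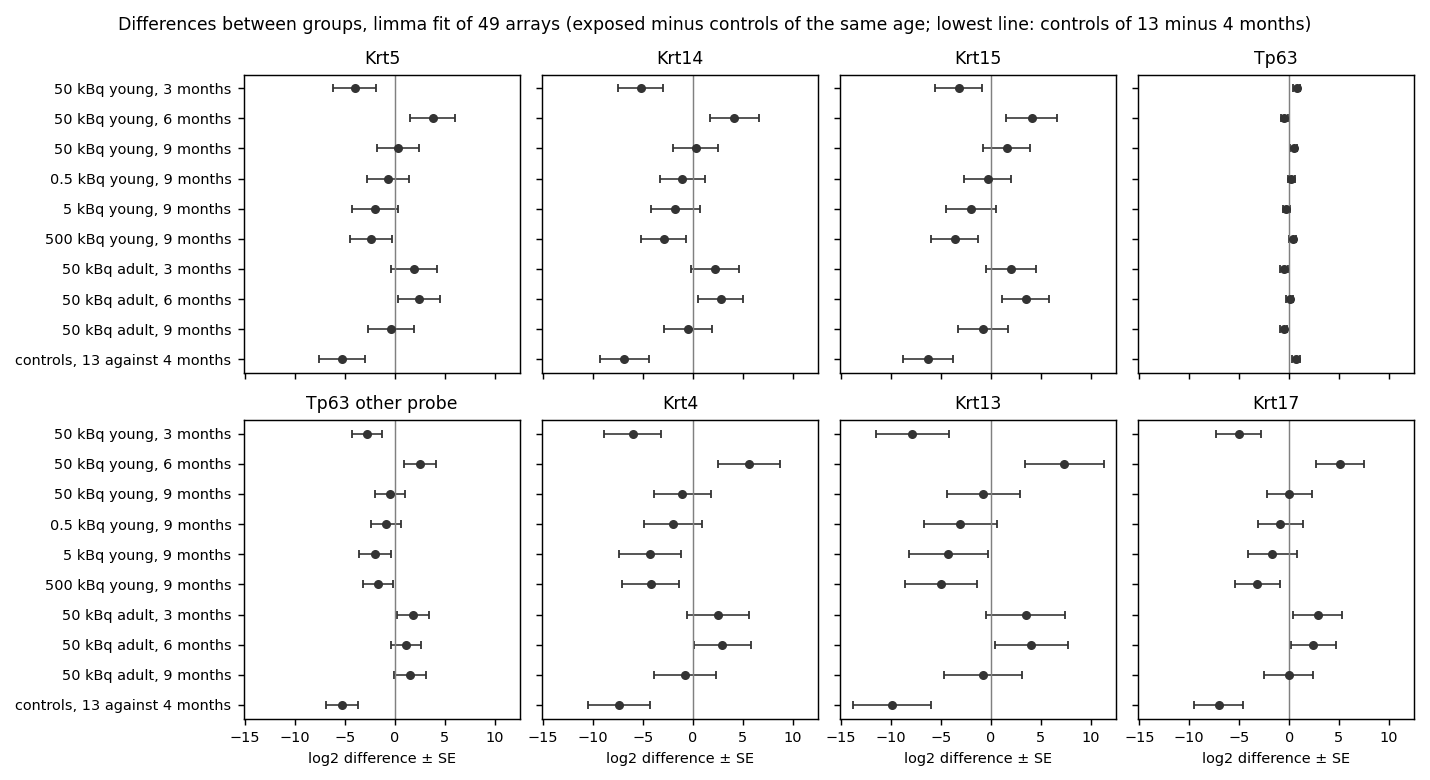
Log2 differences ± SE from the limma fit of 49 arrays, 1 panel per probe. The upper 9 lines of a panel are exposed groups minus controls of the same age, and the lowest line is untreated controls of 13 minus 4 months. None of the points was called, and the SE of Krt13 (3.64 to 3.94) is about as large as many of its differences.

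The fixed lists were read the same way. In the young rats 3 months after 50 kBq, the median log2 difference was -2.70 over the 12 differentiation genes, 7 of them with an unadjusted p under 0.05. It was -1.66 over the 10 adhesion genes, 5 of them with an unadjusted p under 0.05. Over all probes the median was 0.30, and 37.9% had an unadjusted p under 0.05. In the same comparison the median was 2.29 over 8 cartilage genes (6 with an unadjusted p under 0.05), -4.08 over 3 parathyroid genes (2) and 1.54 over 7 airway genes (3), and 2 of the 4 exposed arrays were among those that stood apart. At 6 months the median over the differentiation genes was 1.92, against -0.10 over all probes. An unadjusted p under 0.05 was found for 3 of 12 differentiation and 5 of 10 adhesion genes, beside 6.56% of all probes. The median over 10 follicular genes was 2.32 there, and the controls held an array without thyroid levels, whose sums of 2.01 for differentiation and 2.34 for adhesion were the lowest of the 49. The part of these arrays and markers in the medians was not tested. In the adult rats the medians of the differentiation and adhesion genes were 1.54 and 1.28 at 3 months, against the same controls (follicular genes 2.22), and 0.63 and 0.38 at 6 months. Between controls of 13 and 4 months the median was -1.41 for differentiation (6 of 12) and 0.25 for adhesion (0 of 10). Over all probes it was 0.19, and 34.0% had an unadjusted p under 0.05. None of the genes of the differentiation and adhesion lists was called in any comparison.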

How the data were processed

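Thyroid RNA of 49 rats was labelled with Cy3 and hybridised to Agilent Sureprint G3 Rat GE 8x60K arrays, which were read with Agilent Feature Extraction. The authors deposited, for each array, the processed signal intensity of every spot, background-subtracted and not scaled between arrays. The deposited files also hold the median spot and local background intensity and, in other units, marks of 0 or 1 that flag outliers, saturation and a signal well above background. A table of the whole series holds the authors' own comparisons and was not used. Partek is named in the submitters' processing notes, and the sources used here give neither its role nor its version. The methods name Nexus Expression with the cut-offs used here and no model.

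Control spots and spots marked as outliers were left out, log2 was taken, each array was shifted so that its 75th percentile lay at 0, and the spots of a probe were averaged. Of 30367 probes, 17998 were matched to a symbol. The probe with the highest mean signal stood for a gene, and other probes of the 8 genes are given where they differ. Probes marked on at least 3 arrays (25284) entered the fit of limma (version 3.58.1, R 4.3.3, files read with data.table, version 1.17.8), with 1 mean per group and no covariate. The fit was checked on simulated data with normal noise of equal spread in all groups. That check does not cover signals that split into high and low arrays, as those of the keratins did. Where a whole group lacked the mark, each array of that group was set no lower than its lowest marked signal for the fold. Arrays of the other group kept their measured signals, so that the fold is a bound only where all of these carried the mark. Tables and plots were made with matplotlib 3.10.9, scipy 1.17.1, numpy 2.4.6 and pandas 2.3.3 under Python 3.11.15.

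Groups and replicate numbers came from the sample labels. Each array is a separate rat, and the number of arrays limits the precision. Arrays of equal replicate number deviated together in all pairs (correlations 0.137 to 0.33 over probes) only between the young rats 6 months after 50 kBq and their controls, and the labels tie the numbers to nothing shared. The genes named are the 8 members, the 5 most like each layer, up to 4 genes with the highest mean signal of the adhesion and differentiation lists, and called genes of any list. Genes of other marker lists named beside them were picked with their values in view. The members, lists and tests were chosen with earlier results of these data known.

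Alternatives were quantile normalization, normexp with an offset of 50, other filters on dim probes, a block for replicate number, slide or scan day, array weights, only the compared groups, an adjusted p under 0.05, other probes of a gene, and each array left out. Leaving out the 3 arrays that stood apart, the other probe of Tp63 in the comparison of layers, and the folds against lowest marked signals with arrays left out were chosen after seeing the data.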

Additional observations from a re-analysis of the deposited data

Results flagged for a closer look

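In each group of 4 arrays, the highest and lowest array of every probe was checked for a gap to the nearest other array that was large for the range of the group (Dixon's test at the 95% level), over 80 combinations of probe and group. Chance gives about 1 in 20, and 11 were found. Of these, 6 were the single keratin-high array of its group: replicate 4 at 0.5 kBq for Krt13 (5.88), Krt4 (5.67), Krt17 (0.68) and the other probe of Tp63 (0.35), and replicate 4 of the adult rats at 3 months for Krt4 (5.83) and Krt5 (1.44). In 2 cases the array was the single low one of its group, replicate 2 of the controls of 4 months, for Krt13 (-8.82) and Krt17 (-8.57). Krt5 was at -0.94 on replicate 2 of the young rats 3 months after 50 kBq, the array with low signal. Krt5 was at -5.79 on replicate 4 at 500 kBq, and Krt15 at -6.50 on replicate 2 of the adult rats at 9 months, both within the range of keratin-low arrays.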

How the results depend on the processing

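No member was called in any of the 14 comparisons under quantile normalization, normexp, the other filters, the blocks, the fit of only the compared groups (not applicable to all exposed groups together) or without the 3 arrays that stood apart. With array weights, 1 was called in the adult rats at 9 months, 1 in the difference between adult and young effects at 9 months, both times the brighter probe of Tp63, and 3 between controls of 13 and 4 months. These 3, Krt14, Krt17 and the other probe of Tp63, were also the ones called at an adjusted p under 0.05. With each array left out, 0 to 2 were called there, the 2 being Krt17 and the other probe of Tp63 without replicate 2 of the controls of 4 months. The sign of the difference of Tp63 depended on the setting or the probe. In the young rats 3 months after 50 kBq, the brighter probe had -0.081 without the arrays that stood apart. The mean of the probes gave -1.01 there and the other probe -2.76. At 6 months the brighter probe had 0.026 with array weights, while the mean gave 1.01 and the other probe 2.49. At 500 kBq, the mean and the other probe gave -0.69 and -1.73. They gave 0.65 and 1.83 in adult rats at 3 months, and -2.33 and -5.33 between controls of 13 and 4 months. The brighter probe itself kept its sign in these last comparisons. In adult rats at 6 months the brighter probe had -0.061 with array weights and -0.10 to 0.16 with each array left out. In adult rats at 3 months, leaving out each array gave -0.24 to 3.62 for Krt4 and -0.067 to 2.77 for Krt5. The cause of these changes was not tested. With the replicate block, the difference of Krt13 was 6.57 in young rats at 6 months and -9.13 between controls, and no call of a member changed. The suprabasal mean was above the basal mean on 25 to 31 arrays under the alternatives.

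Counts over all probes moved more. In the young rats 3 months after 50 kBq 3 probes were called, 4279 at an adjusted p under 0.05, and 0 to 4261 with each array left out, where each of the 8 arrays moved the count. In adult rats at 9 months the count was 141, and 7861 with array weights, 2261 without the arrays that stood apart, 312 with slide, 9 with the replicate block, 3 with scan day, 13 with normexp, 9 without a filter, 0 with only the compared groups, 1146 at an adjusted p under 0.05 and 0 to 893 with each array left out, each of which moved it by more than 1.5 times. Between controls of 13 and 4 months it was 1302, and 9035, 5534, 3248, 788, 2380, 498, 1029, 0, 4474 and 11 to 2084 in the same order, where replicates 1, 3 and 4 of the controls of 4 months and 1 and 2 of those of 13 months moved it by more than 1.5 times. With array weights, 518 were called in adult rats at 3 months, 322 in young rats at 6 months after 50 kBq, 89 at 500 kBq and 5961 in the difference of effects at 9 months. Low signals of Krt13 and Krt17, not well above background on 26 and 29 of 49 arrays, limit the sizes of their differences.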
